A study of Mus musculus with 4 samples.

Results

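The genes described here are 35 genes of nucleotide excision repair, base excision repair, mismatch repair, translesion synthesis and direct damage reversal, measured as messenger RNA in mouse embryonic stem (ES) cells. They were chosen by name from their repair roles, and each was represented by the sum of its RefSeq transcript rows, expressed in FPKM, the fragments counted on a transcript scaled to its length and to the size of the library. The 35 genes come from 22377 named genes, and all 35 were among the 12986 genes that reached 1 FPKM in at least 1 library. The study holds 4 libraries of polyadenylated RNA, 1 for each of 4 groups: p53+/+ cells left untreated, p53+/+ cells given 0.5 uM Adriamycin for 8 h, p53-/- cells left untreated, and p53-/- cells given the same treatment. Adriamycin is doxorubicin, which intercalates into DNA and traps topoisomerase II on it. All cells were of a mixed C57BL/6 and 129Sv background, had been passaged fewer than 20 times and were grown in serum with leukemia inhibitory factor. The labels do not say how many clones or cultures stand behind each library, and they name an exome enrichment kit, which may shape which transcripts the libraries hold.

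Nucleotide excision repair cuts out a short stretch of the damaged strand around bulky lesions, after recognition by the Xpc complex or by a stalled RNA polymerase. Base excision repair removes single damaged bases with glycosylases, cuts the strand at the resulting abasic site and fills and seals the gap, while mismatch repair corrects replication errors. Translesion polymerases copy across lesions that stop the replicative polymerases, and Mgmt takes alkyl groups off guanine directly. The protein p53 is a transcription factor that DNA damage activates, and some repair genes are known p53 targets in human cells.

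With 1 library per group there is no replicate error to set a difference against, and neither p-values nor standard deviations are given. Differences are on the log2(FPKM + 1) scale, which understates those of low genes, and genes 1 or more apart on that scale (2-fold) were counted as higher or lower. A smaller step of 1.5-fold was also counted. Every deposited FPKM comes with 2 bounds, a lower and an upper one. These bounds are printed only for the 23 members whose FPKM lies inside them in all 4 libraries, and they cover counting and assignment error, not the variation between cultures. In bulk RNA, fewer cells of a type and less RNA per cell cannot be told apart.

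The libraries held 3.34 to 4.32 gigabases of aligned sequence, estimated from the deposited coverage. Per member, the coverage had a median of 46.6 to 71.0 reads per base, and the lowest was 3.57, for Polk in the untreated p53-/- library. Trp53 stood at 216 FPKM before and 165 FPKM after treatment in p53+/+ cells and at 78.6 and 76.5 FPKM in p53-/- cells, so the p53-/- libraries hold less of its RNA but not none. The summed level of 8 p53 activity markers, among them Cdkn1a and Mdm2, was 175 FPKM before and 895 FPKM after treatment in p53+/+ cells and 69.0 and 84.6 FPKM in p53-/- cells. The 6 ES cell markers, Pou5f1 among them, summed to 2096 to 3478 FPKM, so the labelled cell type was present in all 4 libraries. In p53+/+ cells all 6 were below their untreated level after treatment, with differences of -0.66 at the median and -1.76 at the lowest. In p53-/- cells 5 of the 6 were below it, with a median of -0.26. Over all genes these medians were 0.05 and 0.07. The part of this change in the members' differences was not tested. The 10 fibroblast markers summed to 9.22 and 15.8 FPKM in p53+/+ cells without and with Adriamycin and to 326 and 276 FPKM in p53-/- cells. All 10 were higher in p53-/- than in p53+/+ cells when untreated. Col1a1, a fibrillar collagen gene, was at 0.73 and 5.03 FPKM in p53+/+ cells and at 151 and 117 FPKM in p53-/- cells, while Col3a1, Postn and Dcn were listed at 0 in both p53+/+ libraries. The part of these markers in the genotype differences given here was not tested.

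For 28 of the 35 members the RefSeq promoter table, on the build GRCm38.p6, held at least 1 start, with 31 starts in all. The members without a window, which were not searched, are Xpc, Ddb2, Ercc3, Neil2, Polb, Poli and Rev3l. The window of 250 bases before each start was searched on both strands for the p53 consensus decamer, a 10-base site named for the protein that binds it. The decamer was found in 2 of the 31 windows (6.45%), those of Cetn2 and of the inner Polk start, against 7.13% of all 32851 promoters. A pair of decamers separated by at most 13 bases was found in 0 of the 31 windows and in 0.0639% of all promoters. CpG dinucleotides numbered 16 at the median of the 31 windows, with a range of 2 to 42, against 6 at the median of all promoters. Shown here, 5′ to 3′ on the strand of the gene, are windows of the 3 members whose treated levels differed most between the genotypes. They lie at chr1:44147494-44147743 (plus strand) for Ercc5, chr7:136894336-136894585 (plus strand) for Mgmt and chr13:96519188-96519437 (minus strand) for the inner Polk start, all in GRCm38.p6. The capitals mark the decamer, which begins 231 bases before the inner Polk start.
Ercc5: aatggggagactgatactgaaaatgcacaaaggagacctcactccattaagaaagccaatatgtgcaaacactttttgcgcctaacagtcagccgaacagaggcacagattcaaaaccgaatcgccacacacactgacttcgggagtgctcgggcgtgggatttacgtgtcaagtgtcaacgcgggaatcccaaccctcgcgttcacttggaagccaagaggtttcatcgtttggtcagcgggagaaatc
Mgmt: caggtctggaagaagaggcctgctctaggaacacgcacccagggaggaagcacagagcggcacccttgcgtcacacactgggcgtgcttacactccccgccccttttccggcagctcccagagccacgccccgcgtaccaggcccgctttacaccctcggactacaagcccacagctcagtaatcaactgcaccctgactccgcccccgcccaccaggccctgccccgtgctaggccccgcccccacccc
Polk, inner start: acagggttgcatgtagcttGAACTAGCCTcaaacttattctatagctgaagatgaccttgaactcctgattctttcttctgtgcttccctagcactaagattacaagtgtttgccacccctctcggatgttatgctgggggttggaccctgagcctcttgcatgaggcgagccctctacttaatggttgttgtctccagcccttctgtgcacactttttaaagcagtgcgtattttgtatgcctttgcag
The Ercc5 and Mgmt windows hold no capitals because the decamer was not matched in them, which says only that those letters are not in these windows. A match is a description of sequence and was not tested as a site. The inner Polk start lies 23298 bases from the start of the measured Polk transcript. The window of the other Polk start, 94 bases from the start of the measured transcript, held 0 decamers and is not shown.

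In p53+/+ cells, 5 of the 35 members were higher after Adriamycin: the nuclease gene Ercc5, the polymerase gene Polk, the glycosylase gene Nthl1, the scaffold gene Xrcc1 and Mgmt. Only 1 member was lower, the abasic-site endonuclease gene Apex1. The 5 higher members are 14.3% of the 35, against 11.4% of all 12986 genes, and the lower one is 2.86%, against 2.79%. With a pseudocount of 5 FPKM, Nthl1 and Mgmt were no longer past the step. For Nthl1, Xrcc1 and Mgmt the FPKM lay above its own upper bound in both p53+/+ libraries, so these calls have no usable bounds. The shares of 14.3% and 2.86% are near the background, so the counts are no result about repair genes as a class, and the values of single genes are what the data give. In p53-/- cells 0 members were higher or lower by 2-fold, where 0.370% of all genes were higher and 0.470% lower, and the members' responses ran from -0.20 to 0.42. The median response of the 35 members was 0.11 in p53+/+ cells and 0.06 in p53-/- cells, beside 0.05 and 0.07 over all genes. At the 1.5-fold step, 7 members were higher in p53+/+ cells (Mpg and Rev1 joining the 5) and 2 lower (Rad23b and Apex1), against 21.7% and 11.3% of all genes. At that step 0 members passed in p53-/- cells, against 1.56% higher and 1.49% lower over all genes. Of all genes counted at 2-fold in p53+/+ cells, 80.3% were higher, and quantile normalization moved this split to 65.4% and the median of all genes to -0.10.

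**Figure D1:**
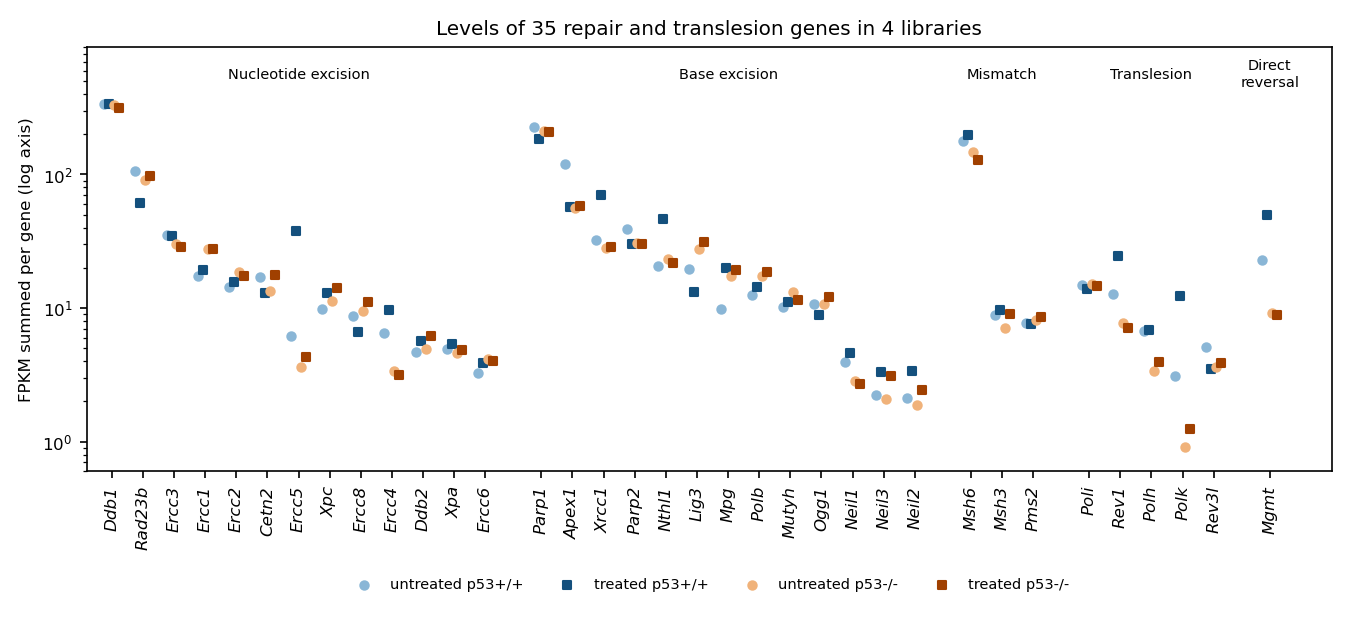
FPKM of the 35 members in the 4 libraries on a log axis, ordered by repair group; each symbol is 1 library, as the key gives. Ercc5, Polk, Nthl1, Xrcc1 and Mgmt stand apart in the treated p53+/+ library, and Apex1 in the untreated p53+/+ library.

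Among the damage recognition genes of nucleotide excision repair, none passed the 2-fold step in either response. Xpc, which encodes the sensor of distorted DNA, stood at 9.81 FPKM untreated and 12.9 FPKM treated in p53+/+ cells and at 11.4 FPKM untreated and 14.05 FPKM treated in p53-/- cells. Its responses were 0.36 and 0.28, so the treated library was the higher one in both genotypes, and the bounds were apart in both. Ddb2, whose product binds ultraviolet lesions, stood at 4.70, 5.65, 4.90 and 6.19 FPKM in the same order of libraries, with responses of 0.22 and 0.28. Both genes are known p53 targets in human cells, and here their response in p53+/+ cells differed from that in p53-/- cells by 0.08 and -0.06. Ddb2 shares a stretch of 167 bases, 10.7% of the compared transcript, with Acp2 on the opposite strand. Acp2 stood at 3.95, 3.13, 4.23 and 4.77 FPKM in the same order of libraries, and the part of shared reads in the Ddb2 values was not tested. Ddb1, the partner of Ddb2 and an adaptor of cullin ligases, had the highest mean level of the 35 members and was nearly level, at 313 to 337 FPKM. Rad23b, which stabilises Xpc, was at 106 FPKM before and 60.7 FPKM after treatment in p53+/+ cells and at 91.5 and 96.7 FPKM in p53-/- cells. The treated p53+/+ library was thus the lowest of the 4 for Rad23b, with a response of -0.79 against 0.08 in p53-/- cells. Cetn2, the centrin in the same complex, had responses of -0.38 and 0.36. The ratio of Rad23b to Xpc was 10.8 in untreated and 4.71 in treated p53+/+ cells, and 8.05 and 6.88 in p53-/- cells.

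The genes of the transcription-coupled branch and of DNA opening differed by less than 2-fold in every comparison. Ercc6, the remodeller known as CSB, ran from 3.27 to 4.19 FPKM. Ercc8, its partner known as CSA, was at 8.65 FPKM untreated and 6.65 FPKM treated in p53+/+ cells and at 9.52 and 11.0 FPKM in p53-/- cells. The Ercc8 bounds of the treated p53+/+ library were apart from those of the untreated one, on the lower side. Xpa, which verifies the lesion, ran from 4.64 to 5.40 FPKM. The helicase genes of the transcription factor TFIIH, Ercc2 and Ercc3, ran from 14.4 to 18.7 and from 28.5 to 35.2 FPKM. Xpa, Ercc2 and Ercc3 thus spanned at most 1.30-fold between the lowest and the highest library.

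The incision genes held the largest response of all 35 members. Ercc5, the XPG nuclease that cuts 3′ of the lesion (chr1:44204589-44238105 in mm9), was at 6.17 FPKM in untreated p53+/+ cells, with bounds of 5.50 and 6.74. It was at 38.0 FPKM in treated p53+/+ cells, with bounds of 35.3 and 38.4, and at 3.62 FPKM untreated and 4.27 FPKM treated in p53-/- cells. The treated p53+/+ library stood above the other 3, and the FPKM was 6.16-fold that of untreated p53+/+ cells, a difference of 2.44 against 0.19 in p53-/- cells. Ercc4, the XPF nuclease that cuts on the 5′ side, was at 6.55 FPKM untreated and 9.64 FPKM treated in p53+/+ cells and at 3.35 and 3.16 FPKM in p53-/- cells. Its response of 0.49 in p53+/+ cells did not reach the step, though the bounds of the 2 libraries were apart. Ercc1, the partner of Ercc4, went the other way between genotypes, at 17.3 and 19.2 FPKM in p53+/+ cells and 27.5 and 27.6 FPKM in p53-/- cells. The Ercc1 to Ercc4 ratio was therefore 2.64 and 1.99 in p53+/+ cells and 8.21 and 8.74 in p53-/- cells.

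**Figure D2:**
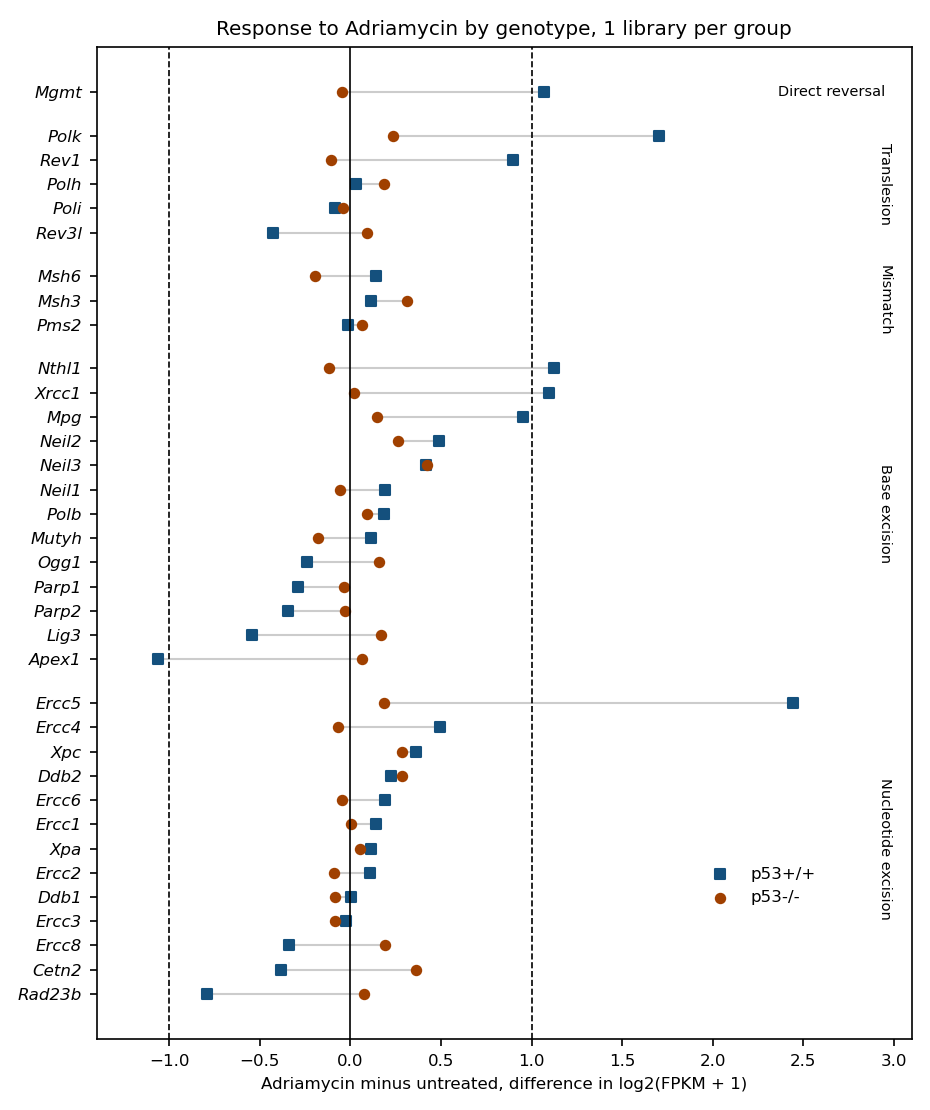
Response to Adriamycin of each member (horizontal axis), as differences of log2(FPKM + 1), with the genes listed by repair group on the vertical axis. Squares are p53+/+ cells, circles are p53-/- cells, and dashed lines mark the 2-fold step. In p53+/+ cells Ercc5 lies farthest right at 2.44 and Apex1 farthest left at -1.06. All p53-/- responses stay between -0.20 and 0.42.

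Among the 7 glycosylases, which remove damaged bases, Nthl1 passed the 2-fold step and Mpg lay just under it. Nthl1, which removes oxidised pyrimidines (chr17:24769627-24775783 in mm9), was at 20.8 FPKM untreated and 46.4 FPKM treated in p53+/+ cells and at 23.5 and 21.6 FPKM in p53-/- cells. The treated p53+/+ library was the highest, at 2.23-fold the untreated one, with responses of 1.12 and -0.12 in the 2 genotypes. Mpg, which removes alkylated purines, was at 9.82 FPKM in untreated p53+/+ cells and at 19.9, 17.3 and 19.3 FPKM in the treated p53+/+, untreated p53-/- and treated p53-/- libraries. Here it was the untreated p53+/+ library that stood apart, on the low side. The treated p53+/+ level was 2.03-fold the untreated one, a response of 0.95 with the pseudocount of 1 and of 1.01 with a pseudocount of 0.1, so its call depends on that setting. Mpg shares exons with Nprl3 on the opposite strand, the longest shared stretch being 1129 bases or 65.0% of the compared Mpg transcript. Nprl3 had the same pattern, at 11.4, 22.7, 25.9 and 25.6 FPKM. The strand setting of the counting is not given in the sources used here, so reads of the pair cannot be told apart. The other glycosylases had p53+/+ responses of -0.24 for Ogg1, which removes oxidised guanine, 0.11 for Mutyh, which removes adenine opposite it, and 0.19, 0.49 and 0.42 for Neil1, Neil2 and Neil3. Neil3 also had a response of 0.42 in p53-/- cells, the highest of the 35 there, from 2.08 to 3.13 FPKM. Neil2, Neil3 and Neil1 had the lowest mean levels of the 35 members, at 2.45, 2.69 and 3.52 FPKM.

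Apex1, which cuts the strand at abasic sites (chr14:51544624-51546863 in mm9), was at 120 FPKM in untreated p53+/+ cells, with bounds of 116 and 126. It was at 57.1 FPKM in treated p53+/+ cells and at 56.0 FPKM untreated and 58.5 FPKM treated in p53-/- cells. The untreated p53+/+ library stood alone, and the other 3 had overlapping bounds. The response was -1.06 in p53+/+ cells and 0.06 in p53-/- cells, and it was under the 2-fold step after quantile normalization. The compared Apex1 transcript shares a stretch of 685 bases, 55.3% of it, with Pip4p1 on the opposite strand, which stood at 35.6, 25.3, 27.8 and 28.4 FPKM. Pip4p1 was thus also highest in the untreated p53+/+ library, with responses of -0.48 and 0.03. As for Mpg, the strand setting is not given, so reads of the pair cannot be told apart.

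Of the genes for gap filling, ligation and break sensing, Xrcc1 was the one counted as higher. Xrcc1, the scaffold that holds Lig3 and Polb at breaks (chr7:25332169-25358457 in mm9), was at 32.3 FPKM untreated and 70.2 FPKM treated in p53+/+ cells and at 28.4 and 28.8 FPKM in p53-/- cells. Lig3, the ligase that Xrcc1 binds, was at 19.7 and 13.2 FPKM in p53+/+ cells and at 27.8 and 31.4 FPKM in p53-/- cells. The partners thus went opposite ways in p53+/+ cells, with responses of 1.09 and -0.54, and the Xrcc1 to Lig3 ratio was 1.64 and 5.31 there and 1.02 and 0.919 in p53-/- cells. Lig3 shares a stretch of 414 bases, 9.08% of the compared transcript, with Rffl on the opposite strand, whose level went from 6.95 to 14.1 FPKM in p53+/+ cells. Polb, the gap-filling polymerase, was at 12.5 to 18.7 FPKM with responses of 0.18 and 0.09. Parp1 and Parp2, which mark breaks with poly(ADP-ribose), had p53+/+ responses of -0.29 and -0.35 and p53-/- responses of -0.03 each. Parp1 had the second highest mean level of the members, at 208 FPKM.

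None of the 3 mismatch repair members passed a step in either response. Msh6, whose product binds base mismatches and small loops, was at 178 FPKM untreated and 196 FPKM treated in p53+/+ cells and at 147 and 128 FPKM in p53-/- cells. Msh3, its counterpart for larger loops, was at 8.87, 9.68, 7.05 and 8.99 FPKM in the same order. The ratio of Msh6 to Msh3 in FPKM, a scale that is per length, was 20.0, 20.3, 20.9 and 14.3. Pms2, an endonuclease subunit, was the steadiest of the 3, at 7.61 to 8.51 FPKM.

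Among the translesion polymerases the members differed widely from each other. Polk, the polymerase kappa gene (chr13:97250644-97312440 in mm9), was at 3.12 FPKM in untreated p53+/+ cells, with bounds of 2.72 and 3.49, and at 12.4 FPKM in treated ones, with bounds of 11.3 and 13.2. In p53-/- cells it was at 0.911 and 1.25 FPKM, with overlapping bounds. The treated p53+/+ level was 3.98-fold the untreated one, and the 13.6-fold span between the lowest and the highest library was the widest of the 35 members. Rev1, a scaffold for other translesion polymerases (chr1:38109631-38186507 in mm9), was at 12.6 and 24.4 FPKM in p53+/+ cells and at 7.72 and 7.10 FPKM in p53-/- cells. Its p53+/+ response was 0.90, a 1.93-fold level that lies just under the step. Rev1 shares a stretch of 415 bases with Eif5b on the opposite strand, which went from 23.7 to 16.5 FPKM in p53+/+ cells, against the direction of Rev1. Rev3l, the catalytic subunit of polymerase zeta, which extends after Rev1, was at 5.09 and 3.53 FPKM in p53+/+ cells and at 3.60 and 3.89 FPKM in p53-/- cells. The Rev1 to Rev3l ratio was 2.48 and 6.93 in untreated and treated p53+/+ cells and 2.15 and 1.82 in p53-/- cells. Polh, which copies past ultraviolet dimers and is a known p53 target in human cells, was at 6.69 and 6.86 FPKM in p53+/+ cells and at 3.36 and 3.95 FPKM in p53-/- cells. It differed by genotype but hardly by treatment, with responses of 0.03 and 0.18. Poli, a paralog of Polh, was the steadiest of the 5, at 13.9 to 15.1 FPKM. The lesser of its 2 measured transcripts made up 8.93% to 16.1% of the gene sum.

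Mgmt, the alkylguanine transferase gene (chr7:144086294-144319871 in mm9), was at 23.1 FPKM untreated and 49.6 FPKM treated in p53+/+ cells and at 9.14 and 8.80 FPKM in p53-/- cells. The p53-/- libraries were both below both p53+/+ libraries. The treated p53+/+ level was 2.15-fold the untreated one, and the responses were 1.07 and -0.05. In both p53+/+ libraries the Mgmt FPKM lay above its own upper bound.

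**Figure D3:**
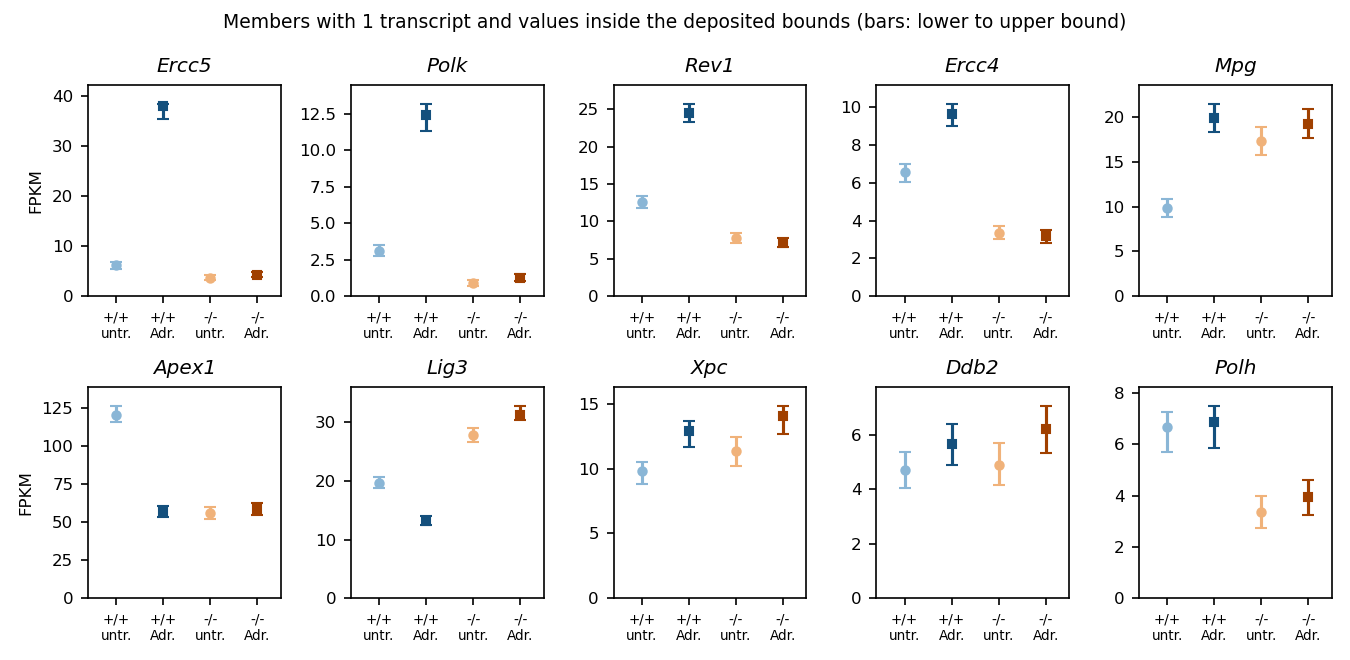
FPKM in the 4 libraries with the deposited lower and upper bounds (bars), for 10 of the members whose FPKM lies inside its bounds in all 4 libraries. The treated p53+/+ library is the highest for Ercc5 (38.0) and Polk (12.4), and the untreated p53+/+ library for Apex1 (120).

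Of the 23 members with usable bounds, 9 had bounds apart and higher after treatment in p53+/+ cells: Xpc, Ercc6, Ercc4, Ercc5, Neil2, Neil3, Mpg, Polk and Rev1. Another 4 had bounds apart and lower: Ercc8, Apex1, Lig3 and Rev3l. These are 39.1% and 17.4% of the 23, against 36.8% higher and 25.4% lower over the 10651 genes whose values lie inside their bounds. In p53-/- cells 3 had bounds apart and higher, Xpc, Lig3 and Msh3, and 0 lower, against 14.4% and 7.22% of those genes. The members' higher shares are again near the background, while their lower shares lie under it in both genotypes. These counts are small and were not tested, and bounds that do not meet are common in these libraries. Xpc was the member with bounds apart and higher in both genotypes.

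Before treatment, 3 members were lower by 2-fold in p53-/- than in p53+/+ cells and 0 were higher. The 3 were Apex1 (-1.09), Polk (-1.11) and Mgmt (-1.25), or 8.57% of the members against 3.13% of all genes lower and 3.48% higher. At the 1.5-fold step 7 were lower, with Ercc4, Ercc5, Polh and Rev1 joining, and 2 higher, Ercc1 (0.64) and Mpg (0.76), against 11.0% lower and 10.3% higher over all genes. The 7 include 3 of the 5 translesion genes, whose group median was -0.65. With pseudocounts of 0.1 and 5 FPKM that median was -0.70 and -0.46. The other medians were -0.01 for nucleotide excision, -0.07 for base excision and -0.27 for mismatch repair, beside -0.05 for all genes. The fibroblast markers given above differ between the same libraries.

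After treatment, the p53-/- library was lower than the p53+/+ library by 2-fold for 7 members and higher for 1. The lower ones were Ercc5 (-2.89), Polk (-2.58), Mgmt (-2.37), Rev1 (-1.65), Ercc4 (-1.35), Xrcc1 (-1.25) and Nthl1 (-1.07), and the higher one was Lig3 (1.19). The 7 are 20.0% of the members, against 13.0% of all genes lower and 6.69% higher. At 1.5-fold 10 were lower, with Neil1, Msh6 and Polh joining, and 3 higher, with Rad23b and Ercc8 joining, against 23.4% and 17.7% of all genes. Quantile normalization moved the share of higher genes among all those counted here from 34.0% to 44.1% and the median of all genes to 0.10.

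**Figure D4:**
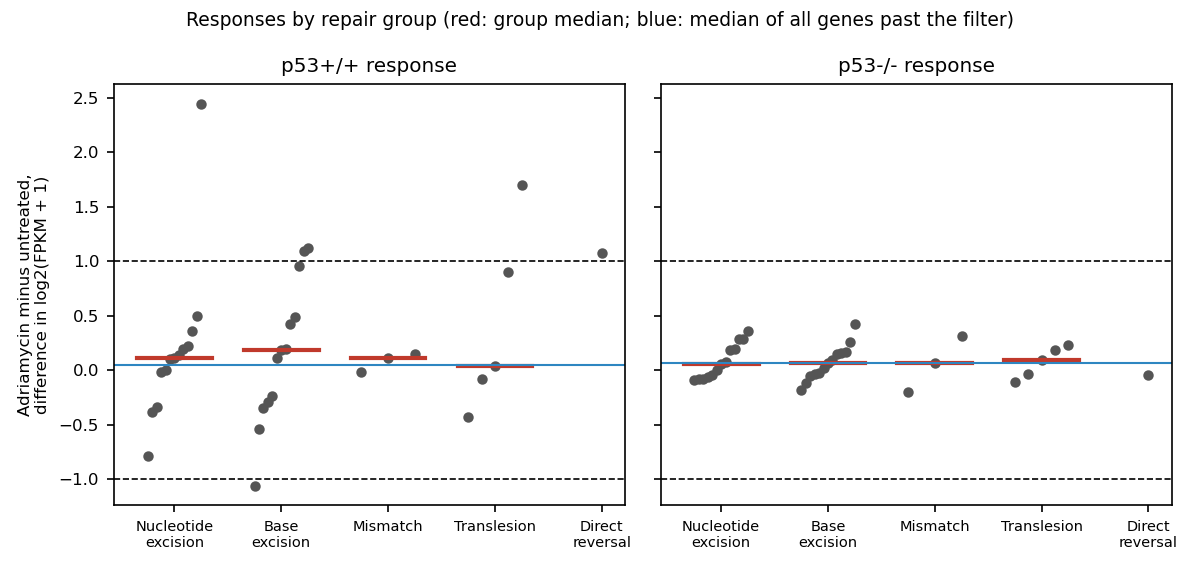
Response of each member in p53+/+ and in p53-/- cells by repair group, as differences of log2(FPKM + 1); black dots are genes, red bars group medians, the blue line the median of all genes and dashed lines the 2-fold step. Group medians lie between 0.03 and 0.18 in p53+/+ cells for the 4 groups of several genes, and single genes spread far around them.

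The responses of the 2 genotypes were also subtracted from each other. The difference was at least 1 for Ercc5 (2.26), Polk (1.47), Nthl1 (1.24), Mgmt (1.12), Xrcc1 (1.07) and Rev1 (1.00) and at most -1 for Apex1 (-1.13). The 6 higher members are 17.1% of the 35, against 10.4% of all genes, and the lower one is 2.86%, against 3.29%. At 1.5-fold 7 were higher, with Mpg joining, and 4 lower, with Rad23b, Cetn2 and Lig3 joining, against 19.8% and 13.8% of all genes. These differences share their libraries with the 4 comparisons above and add no measurement. Quantile normalization moved the share of higher genes among all those counted from 76.0% to 65.5% and the median of all genes to -0.10.

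The group medians of the p53+/+ response were 0.11 for nucleotide excision, 0.18 for base excision, 0.11 for mismatch repair and 0.03 for translesion synthesis. They were 0.05, 0.06, 0.06 and 0.09 in p53-/- cells. The p53+/+ medians depended on the processing. Base excision stood at -0.06 with a filter of 5 FPKM, and after quantile normalization the 4 medians were 0.02, -0.02, -0.02 and -0.18. Within nucleotide excision repair, the 3 incision genes ran from 0.14 to 2.44. In treated cells the genotype medians were 0.11, -0.01, -0.10 and -0.67 in the same order of groups. After quantile normalization these 4 were 0.23, -0.01, 0.03 and -0.49. The translesion median there was -0.78 with a pseudocount of 0.1 and -0.41 with one of 5 FPKM.

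A list of 59 other genes of these pathways, such as TFIIH subunits, replication factor C, replication protein A and the ubiquitin enzymes of damage tolerance, had 57 genes past the filter. In p53+/+ cells 1 of the 57 (1.75%) was higher after treatment, Pold4, a subunit of polymerase delta, and 0 were lower, against 11.4% and 2.79% of all genes. Pold4 went from 5.37 to 11.9 FPKM (1.02), against 5.91 and 6.48 FPKM in p53-/- cells. In p53-/- cells 0 of the 57 were higher or lower, against 0.370% and 0.470%. The medians of the 57 were -0.14 and 0.16 in the 2 responses, beside 0.05 and 0.07 for all genes. In p53+/+ cells the group medians were -0.15 for nucleotide excision, 0.06 for base excision, -0.31 for mismatch repair and -0.14 for translesion and tolerance. At 1.5-fold 2 of the 57 were higher there (3.51%) and 5 lower (8.77%), against 21.7% and 11.3% of all genes. Between untreated genotypes 1 was higher in p53-/- cells, Pold2, another delta subunit, and 0 lower, against 3.48% and 3.13% of all genes. Between treated ones Pold2 was higher and Cul4a, a cullin scaffold, lower, at -1.05, against 6.69% and 13.0%. Pold2 stood at 99.2 and 67.3 FPKM in p53+/+ and at 237 and 206 FPKM in p53-/- cells, untreated and treated. The 16 listed translesion and tolerance genes past the filter had genotype medians (p53-/- minus p53+/+) of -0.14 untreated and 0.14 treated. In the difference between the responses 0 of the 57 were higher and 2 lower (3.51%), against 10.4% and 3.29% of all genes. The 2 were Gtf2h1 (-1.08), a TFIIH subunit, and Usp1 (-1.01), a deubiquitinase of damage tolerance. At 1.5-fold 2 of the 57 were higher (3.51%) and 11 lower (19.3%), against 19.8% and 13.8% of all genes. The median of that difference was -0.26 over the 57 and -0.01 over all genes. Pold2, Cul4a, Gtf2h1 and Usp1 were chosen after their values were seen.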

How the data were processed

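The authors deposited 1 table per library in the Cufflinks transcript layout, with FPKM, its bounds, read coverage and status for each RefSeq transcript, per the file headers. The coverage, a signal averaged over the transcript, is deposited by the authors in the same tables. The submitters' processing notes list the tools Cufflinks, TopHat, TopHat2 2.0.5 and CASAVA 1.8.1 and the mouse build mm9, with no roles. Not given in the sources used here are the annotation, the strand setting and which Cufflinks release was run. FPKM are scaled values, and count models were not applied to them.

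Of 30769 rows per table, 29700 were named from a RefSeq table of GRCm38.p6 and 178 from GENCODE M21. Another 891 stayed unnamed, and 733 rows of short RNAs were left out. The 35 members held 38 rows, all with status OK, and 3 members had 2 rows. Row starts were counted from 0 in the files and are given from 1. Member transcripts were compared with GENCODE transcripts by blastn 2.17.0, and 0 of 35 had a near-identical copy elsewhere (95% identity over 200 bases). Genes whose exons overlap a member on either strand were set apart. Among these, Gm42421 shares a stretch of 273 bases with Pms2 on the same strand. Antisense partners were read from the same comparison. Calculations used Python 3.11.15, pandas 2.3.3 and numpy 2.4.6 and were tested on simulated data. The members, the lists and the tests were chosen with earlier results of these data known. The naming rule covered all 35 members, other pathway genes past a difference of 1 in either response, and Trp53, Cdkn1a, Mdm2, Pou5f1 and Col1a1 as checks. Col3a1, Postn, Dcn, the partners on the opposite strand and other genes outside it were named after their values were seen.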

Additional observations from a re-analysis of the deposited data

Results flagged for a closer look

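Nthl1, Apex1, Rev1 and Mgmt had responses of opposite sign in the 2 genotypes and a difference between the responses of at least 1 on the log2(FPKM + 1) scale. The p53+/+ response minus the p53-/- response was 1.24 for Nthl1, -1.13 for Apex1, 1.00 for Rev1 and 1.12 for Mgmt. In p53-/- cells the responses of these 4 genes lay between -0.12 and 0.06, so the sign there rests on small values. Each group has 1 library and the difference was not tested.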

How the results depend on the processing

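No paired analysis was possible because each group has 1 library. Of the 24 called member values, 0 changed sign wherever an alternative gave a value; with only rows inside their own bounds 14 of the 24 had one, and those of Nthl1, Xrcc1 and Mgmt did not. With a pseudocount of 5 FPKM, 14 of the 24 stayed past the 2-fold step, and the members counted were 3 higher in the p53+/+ response, 1 lower between untreated and 0 higher between treated genotypes, and 3 higher in the response difference. After quantile normalization 23 of the 24 stayed, 0 members were lower in the p53+/+ response, and the members' median there was -0.0185. With only rows inside their own bounds, which keeps 23 members, 2 were higher in the p53+/+ response, 4 lower between treated genotypes and 3 higher in the response difference. At the 1.5-fold step, 2 were lower in the p53+/+ response, 2 higher and 7 lower between untreated genotypes, 3 higher between treated genotypes and 4 lower in the response difference. All 24 stayed past the step with a pseudocount of 0.1, no filter, a filter of 5 FPKM, the top transcript, upper quartile or median of ratios scaling, and rows with status OK. They also stayed with the midpoint of the bounds and with coverage per aligned gigabase, both chosen after seeing the data. Depth limits Polk most, at a coverage of 3.57 in untreated and 5.66 in treated p53-/- cells.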
